A study of Rattus norvegicus with 4 samples.

Results

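The CLC genes encode a family of membrane proteins that move Cl-. CLC genes were taken as those whose symbol is CLCN and a number, and LRRC8 genes, which encode the volume-regulated anion channel, as those whose symbol starts with LRRC8, in the study's lists of plasma membrane channels found in the male choroid plexus, in the sorted epithelial cells or in the proximal tubule. Of the 105 channel genes of these lists used here, 5 are CLC genes and 0 are LRRC8 genes. The CLC genes are CLCN2 (ENSRNOG00000001742), CLCN3 (ENSRNOG00000010682), CLCN4 (ENSRNOG00000003533), CLCN5 (ENSRNOG00000002862) and CLCN6 (ENSRNOG00000008345). The other 100 listed channels, and all 32883 gene IDs of the series, serve below only to show where the CLC genes lie. CLCN1, CLCN7 and the LRRC8 genes were not analysed here.

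RNA was sequenced from 4 libraries of Sprague Dawley rats aged 9 weeks, with 1 library for each condition. The male and the female choroid plexus were whole tissue, each pooled from 5 animals. The FACS library came from choroid plexus cells of 10 males, sorted by fluorescence with an antibody against the Na+, K+, 2Cl- cotransporter NKCC1 and pooled. The proximal tubule library came from kidney tubules of 5 males, also pooled. The study's methods name the male rats as the source of the kidney tissue, so these may be the animals of the male choroid plexus library. No group had a second library, so no test between conditions was possible, and each interval given below is a 95% exact interval (Poisson for a level, binomial for a ratio of 2 levels) that covers counting error only. Levels are TPM, transcript abundances that adjust for transcript length and sum to 1000000 in a library.

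Expected counts, the reads assigned to each gene by RSEM, summed to between 23873318 and 28324976 per library. In the proximal tubule library 70.7% of them fell on the 13 mitochondrially encoded genes, against 4.32 to 5.34% in the other libraries, so proximal tubule levels, and male levels set against them, are TPM without these genes, rescaled to 1000000. That library lists 26609 gene IDs at 0, against 16163 to 17492 in the others, and has only 166 gene IDs above 0 with under 10 counts, against 1586 to 2640, so a CLC gene without counts there is described as listed at 0 and no more. All 12 markers of the choroid plexus epithelium had an ID and were above 0 in the male library, where they summed to 253929 TPM, against 299116 TPM in the female and 399121 TPM in the FACS library. Most of each sum was TTR, and the other 11 summed to 15363, 13224 and 9466 TPM in the same order. All 12 summed to 289 TPM in the proximal tubule library, against 277124 TPM in the male library on the same scale. Of the 12, 7 were at 0 in the proximal tubule library, among them KCNJ13, SLC4A5 and HTR2C. Of 12 proximal tubule markers 10 had an ID, and they summed to 11336 TPM in the proximal tubule library against 154 TPM in the male library on the same scale. As deposited they summed to 117 to 141 TPM in the choroid plexus libraries, SLC22A8, SLC3A1 and SLC5A2 being found there as well.

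CLC proteins work in pairs and fall into 2 kinds. CLCN3, CLCN4, CLCN5 and CLCN6 encode exchangers of Cl- for H+ that sit mostly in endosomes and lysosomes, where they help to acidify the lumen and to load it with Cl-. CLCN2 encodes a Cl- channel of the plasma membrane that opens when the cell is hyperpolarised. The choroid plexus epithelium secretes cerebrospinal fluid and moves Cl- across both of its membranes, while the proximal tubule reabsorbs fluid and depends on the exchanger ClC-5 for the uptake of filtered protein.

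The sequences before the transcription starts of the CLC genes are shown as a description only. A link between them and the levels or ratios of these genes was not tested. The RefSeq promoter table (GRCr8) held all 5 genes, with 7 starts. The coordinates below are those of GRCr8 and not of Rnor_6.0, the build of the expression values. Each run gives the 250 bases before the first start of the gene in the table, 5′ to 3′ on the strand of the gene. Capitals mark an E-box (CACGTG), a cAMP response element (TGACGTCA) or a GC box (GGGCGG), each searched on both strands with overlaps allowed, so a GC box may appear as CCGCCC.
CLCN3, chr16:34137754-34138003, plus strand: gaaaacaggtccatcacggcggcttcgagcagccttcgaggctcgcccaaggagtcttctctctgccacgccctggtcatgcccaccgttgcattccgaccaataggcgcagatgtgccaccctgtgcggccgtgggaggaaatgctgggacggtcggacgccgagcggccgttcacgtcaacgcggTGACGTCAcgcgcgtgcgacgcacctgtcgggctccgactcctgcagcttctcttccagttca
CLCN4, chrX:27290689-27290938, plus strand: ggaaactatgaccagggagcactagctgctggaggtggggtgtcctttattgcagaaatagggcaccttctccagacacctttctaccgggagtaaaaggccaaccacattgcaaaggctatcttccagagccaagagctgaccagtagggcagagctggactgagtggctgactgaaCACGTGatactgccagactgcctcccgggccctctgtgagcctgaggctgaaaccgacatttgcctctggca
CLCN5, chrX:17857010-17857259, plus strand: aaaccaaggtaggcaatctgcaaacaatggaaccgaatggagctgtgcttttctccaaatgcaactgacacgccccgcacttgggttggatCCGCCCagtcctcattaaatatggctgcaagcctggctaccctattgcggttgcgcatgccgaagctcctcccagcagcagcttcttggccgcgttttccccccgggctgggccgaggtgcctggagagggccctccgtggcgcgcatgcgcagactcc
CLCN6, chr5:163748199-163748448, minus strand: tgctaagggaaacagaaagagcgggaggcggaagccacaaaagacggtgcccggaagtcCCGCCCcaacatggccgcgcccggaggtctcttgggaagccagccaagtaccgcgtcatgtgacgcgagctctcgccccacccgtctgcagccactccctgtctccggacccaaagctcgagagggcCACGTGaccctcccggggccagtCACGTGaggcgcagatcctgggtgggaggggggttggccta
CLCN2, chr11:93702344-93702593, plus strand: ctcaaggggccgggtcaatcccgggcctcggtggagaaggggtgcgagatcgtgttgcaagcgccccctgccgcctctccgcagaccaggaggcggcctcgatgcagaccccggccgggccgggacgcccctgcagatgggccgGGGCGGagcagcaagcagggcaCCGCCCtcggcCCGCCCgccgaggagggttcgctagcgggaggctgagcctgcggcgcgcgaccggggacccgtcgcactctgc

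The 5 promoters differed in these letters. CLCN3, whose product is found in late endosomes and synaptic vesicles, held 1 cAMP response element at -63 to -56 from the start, a motif held by 1.59% of the 33469 promoters of the table. CLCN4, which encodes a partner of ClC-3, held 1 E-box at -72 to -67, and CLCN6 held 2 E-boxes at -64 to -59 and -41 to -36, against 5.59% of all promoters with at least 1. GC boxes, held by 30.5% of all promoters, numbered 3 in CLCN2, 1 in CLCN5 and 1 in CLCN6. The G and C content ran from 55.2% in CLCN4 to 75.6% in CLCN2. The second starts of CLCN3 and CLCN5 held none of the 3 motifs in their 250 bases. A match is a match of letters only, and no binding was measured in these libraries.

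Levels of the CLC genes in the male choroid plexus spanned from 33.84 to 4.61 TPM. CLCN3 was the highest, with 33.84 TPM (32.6 to 35.1) from 2839 counts, followed by CLCN4 with 14.35 TPM (13.6 to 15.1) from 1428 counts. CLCN6, an exchanger of late endosomes, had 11.51 TPM (10.9 to 12.1) from 1423 counts. CLCN5 had 5.70 TPM (5.10 to 6.36) and CLCN2 4.61 TPM (4.12 to 5.14), both from 327 counts when rounded, and their intervals overlapped. The exchangers thus came before the plasma membrane channel in the male tissue, though of all neighbours in this order only CLCN5 and CLCN2 overlapped.

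**Figure D1:**
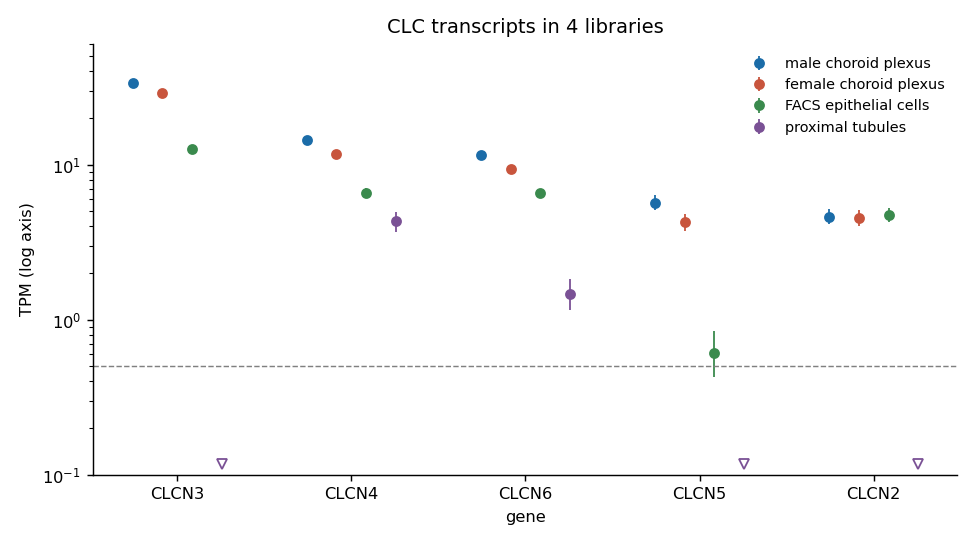
TPM on a log axis (y) of the 5 CLC genes (x) in the 4 libraries, 1 point per library with its 95% exact Poisson interval. Proximal tubule values are without mitochondrially encoded genes, the dashed line is the 0.5 TPM cut-off, and an open triangle at the bottom marks a gene listed at 0. CLCN3 is at 33.84 TPM in the male and at 12.71 TPM after sorting, while CLCN2 stays between 4.54 and 4.73 TPM in the 3 choroid plexus libraries.

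In the female choroid plexus CLCN3 had 28.83 TPM from 2347 counts, CLCN4 11.74 TPM from 1147, CLCN6 9.32 TPM from 1132 and CLCN5 4.27 TPM from 246. CLCN2 had 4.54 TPM from 313 counts. The order was that of the male tissue except that CLCN2 (4.05 to 5.07) and CLCN5 (3.75 to 4.84) changed places, within overlapping intervals.

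The FACS library had another order. CLCN3 was again the highest, with 12.71 TPM (12.0 to 13.5) from 1151 counts. CLCN4 with 6.56 TPM (6.08 to 7.07) from 691 counts and CLCN6 with 6.55 TPM (6.12 to 7.005) from 858 counts could not be ordered. CLCN2 came next with 4.73 TPM (4.25 to 5.25) from 352 counts. CLCN5 came last, with 0.61 TPM from 36 counts, and its interval of 0.428 to 0.847 TPM held the cut-off of 0.5 TPM.

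Of the CLC genes with counts in the proximal tubule library CLCN4 was the higher, with 4.30 TPM (3.69 to 4.96) from 182 counts. CLCN6 had 1.47 TPM (1.15 to 1.82) from 77 counts. CLCN2, CLCN3 and CLCN5 were listed at 0, including the exchanger for which the proximal tubule is best known.

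At a cut-off of 0.5 TPM, the level from which a gene was taken as found, all 5 CLC genes were found in the male, the female and the FACS library alike. Of all gene IDs 41.4%, 40.8% and 39.9% reached the cut-off in these libraries, and of the other listed channels 82, 74 and 81 of 100. In the proximal tubule library 2 of the 5 reached it, CLCN4 and CLCN6, against 18.5% of all gene IDs and 23 of the 100 other channels. The lists from which the CLC genes were taken hold genes found in the male, FACS or proximal tubule library, so these counts describe the family and are partly set by the choice of its members.

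The 5 genes together summed to 70.0 TPM (68.3 to 71.8) in the male choroid plexus, 58.7 TPM (57.1 to 60.3) in the female, 31.2 TPM (30.1 to 32.3) in the FACS library and 5.77 TPM (5.09 to 6.52) in the proximal tubule library. As a share of the TPM of the 105 listed channels the 5 genes held 2.29%, 2.17%, 1.51% and 1.196% in the male, female, FACS and proximal tubule library. CLCN3 made up 48.3% of these CLC transcripts in the male, 49.1% in the female and 40.8% in the FACS library. The share of CLCN2 was 6.58% in the male and 15.2% in the FACS library, and that of CLCN5 8.14% and 1.96%. CLCN4 held 20.5% in the male and 21.1% in the FACS library. In the proximal tubule library CLCN4 held 74.5% and CLCN6 25.5%.

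**Figure D2:**
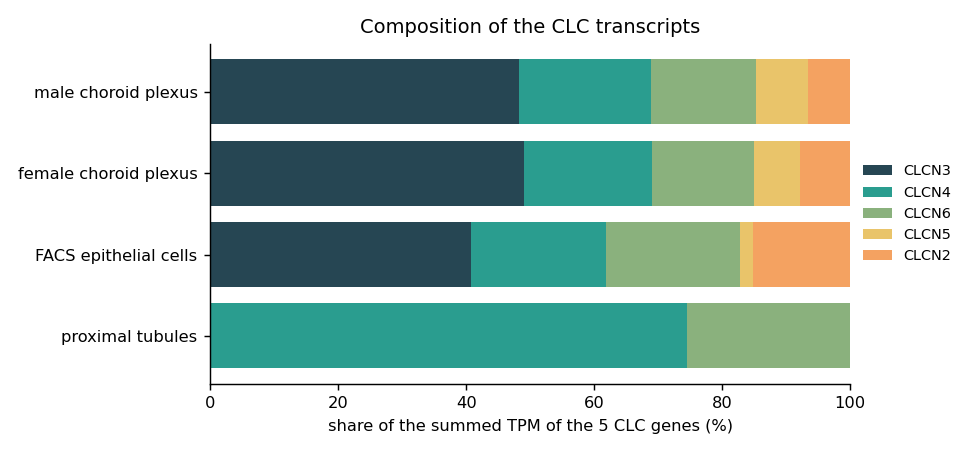
Share of the summed TPM of the 5 CLC genes (x, %) held by each gene (colours) in each library (y). CLCN3 is the largest part of the 3 choroid plexus libraries, with 40.8 to 49.1%, and is missing from the proximal tubule bar, where CLCN4 holds 74.5%.

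Among the listed channels, ordered by TPM, CLCN3 took place 8 in the male, 9 in the female and 15 in the FACS library. CLCN4 took places 18, 19 and 23, and CLCN6 places 21, 24 and 24. CLCN2 stayed at places 35, 32 and 33, whereas CLCN5 was at places 31 and 33 in the whole tissues and at place 79 in the FACS library. In the proximal tubule library CLCN4 was at place 12 and CLCN6 at place 20. These places do not depend on how a library is scaled.

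The sexes were compared first. Differences between them were under 2-fold for all of the 5 CLC genes, each of them at or above 0.5 TPM in either library: 0 were lower and 0 higher by 2-fold or more in the female, against 0.959% and 0.44% of the 13869 gene IDs tested. Ratios here are on the scale of log2(TPM + 1), which understates the change of low genes. The exchangers read lower in the female, CLCN5 at a log2 ratio of -0.35, CLCN6 at -0.28, CLCN4 at -0.27 and CLCN3 at -0.22. CLCN2 lay at -0.018. The median of the 5 was -0.27 and that of all gene IDs -0.16. Without the added 1, CLCN5 was 1.33-fold lower in the female (1.13 to 1.58) and CLCN3 1.17-fold lower (1.11 to 1.24), while the interval of the ratio of CLCN2 (0.839 to 1.15) included 1. CLCN4 and CLCN5 are on chromosome X in the RefSeq table, while CLCN3 and CLCN6, which also read lower in the female library, are on chromosomes 16 and 5. The part of chromosome X in these ratios was not tested. Against genes of similar length (effective length within 20%), the median of the 5 became -0.025, with CLCN3 at -0.020, CLCN6 at -0.025 and CLCN4 at -0.048, but CLCN5 at -0.18 and CLCN2 at 0.17.

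The FACS library was set against the whole male choroid plexus. CLCN3 had 33.84 TPM in the tissue and 12.71 TPM in the sorted cells, 2.66-fold lower (2.48 to 2.85). CLCN4 had 14.35 and 6.56 TPM, 2.19-fold lower (1.997 to 2.40). CLCN5 had 5.70 and 0.61 TPM, 9.32-fold lower (6.60 to 13.5), the largest difference in the family. CLCN6 was lower by a smaller factor, 1.76-fold (1.61 to 1.91). The plasma membrane channel CLCN2 had 4.61 TPM in the tissue and 4.73 TPM in the sorted cells, a ratio of 1.03 whose interval (0.881 to 1.20) included 1. In bulk samples, fewer cells of a type and less RNA per cell cannot be told apart. Of the 12 epithelial markers 2 were higher in the sorted cells and the others lower. SLC4A10 had 325 TPM in the tissue and 108 TPM in the sorted cells, KCNJ13 1372 and 685 TPM, and AQP1 721 and 687 TPM. These folds therefore cannot show which transcripts belong to the epithelial cells.

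The median log2 ratio of FACS to male over the 14024 gene IDs at or above 0.5 TPM in either was -0.58, that of the 89 other listed channels was -0.09, and that of the 5 CLC genes was -1.02. On this scale 3 of the 5, CLCN3 at -1.35, CLCN4 at -1.02 and CLCN5 at -2.06, were lower by 2-fold or more, against 25.5% of all gene IDs and 6 of the 89 other channels (6.74%). Of the 5 CLC genes 0 were higher by 2-fold or more, against 4.61% of all gene IDs and 7.87% of the other channels. Relative to the median of all gene IDs only CLCN5 (-1.48) was lower by 2-fold, CLCN3 being at -0.76, CLCN4 at -0.44 and CLCN6 at -0.15, while CLCN2 was at 0.61. Set against the female tissue in place of the male, CLCN4 was at -0.75 and 2 of the 5, CLCN3 and CLCN5, were lower by 2-fold or more.

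**Figure D3:**
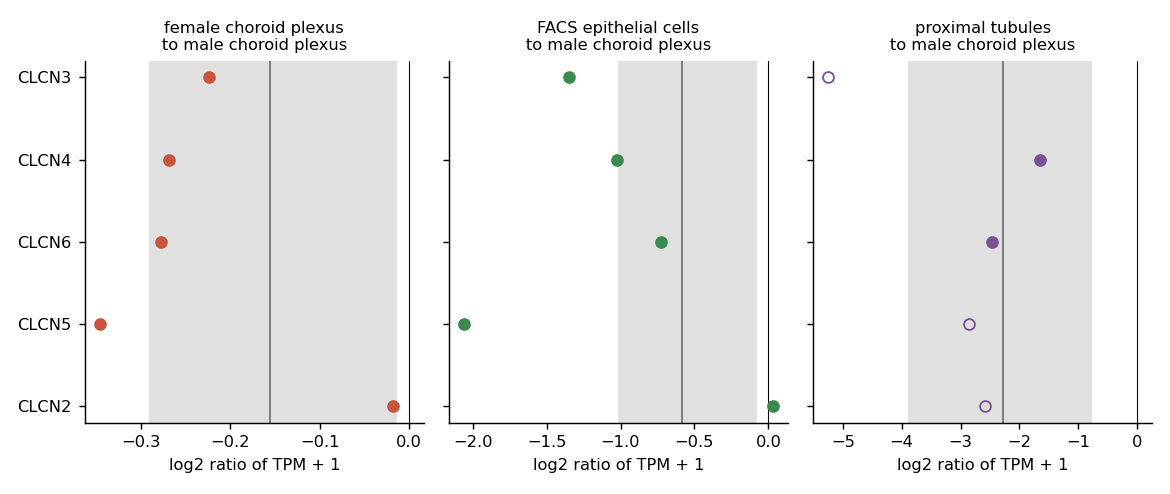
Log2 ratio of TPM + 1 (x) of each CLC gene (y) in the female, FACS and proximal tubule library to the male choroid plexus, in panels with their own x scale. The grey line is the median over all gene IDs tested, the band spans their quartiles, and open points are genes listed at 0 in the proximal tubule library, whose place depends on the added 1 and gives no fold. In the FACS panel CLCN5 lies lowest, at -2.06, and CLCN2 lies above the median of -0.58.

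The ratio of FACS to male also went with transcript length. With all gene IDs split into 5 bins of equal number by effective length, the part of a transcript from which reads can start, the median log2 ratio went from -0.44 in the shortest to -0.73 in the longest. CLCN3, CLCN4 and CLCN6 fall in the longest bin, with effective lengths of 3423, 4060 and 5044 bases in the male library. Genes of similar length had medians of -0.65, -0.69 and -0.73 in the same order. CLCN6, at -0.73, was therefore level with its length class. Less the median of genes of similar length, the log2 ratio was -0.69 for CLCN3, -0.33 for CLCN4 and -1.48 for CLCN5, whereas it was 0.66 for CLCN2. CLCN5 and CLCN2, with the lowest and the highest ratio of the 5, are the shortest of them, with effective lengths of 2340 and 2895 bases in the male library. The part of length in these ratios was not tested.

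**Figure D4:**
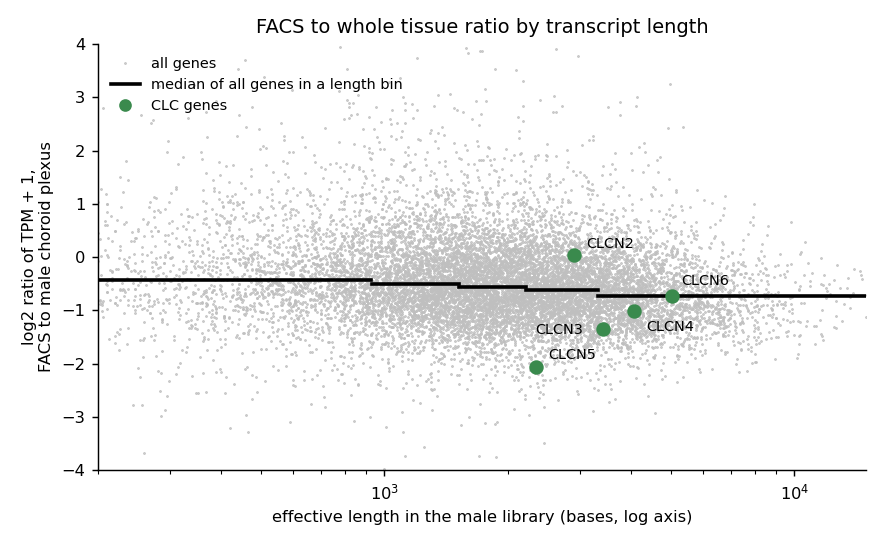
Log2 ratio of TPM + 1 of the FACS library to the male choroid plexus (y) against effective length in the male library (x, log axis). Grey points are all gene IDs at or above 0.5 TPM in either library within the axes, black lines are the medians of 5 length bins, from -0.44 to -0.73, and green points are the 5 CLC genes. CLCN6 lies on the line of its length, CLCN3, CLCN4 and CLCN5 below and CLCN2 above.

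Markers of other cells moved between the same libraries. The epithelial markers summed to 1.57 times their male TPM in the FACS library with TTR and to 0.616 times without it, and 2 of the 12 were higher there. Immune cell markers, of which 4 of 6 had an ID, summed to 837 TPM in the male, 544 TPM in the female and 4585 TPM in the FACS library, with all 4 higher in the FACS library (CD74, LYZ2, CSF1R and CX3CR1). Endothelial markers, 5 of 9 with an ID, summed to 171, 145 and 254 TPM in the same order, and to 65.9, 53.9 and 76.1 TPM without PLVAP. Of these 5 markers 4 were higher in the FACS library and KDR was lower. Markers of mural cells and fibroblasts, 4 of 8 with an ID, summed to 346, 263 and 379 TPM. Of the last 4 markers 2 were higher in the FACS library, and without DCN they summed to 244, 182 and 140 TPM. None of these markers was at 0 in the male library. The part of these cells in the CLC values was not tested.

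The proximal tubule, which also transports fluid at a high rate, was set against the male choroid plexus on TPM without mitochondrially encoded genes. CLCN4 had 15.7 TPM in the choroid plexus and 4.30 TPM in the proximal tubule, 3.65-fold lower (3.13 to 4.29). CLCN6 had 12.6 and 1.47 TPM, 8.61-fold lower (6.84 to 11.0). CLCN3, with 36.9 TPM in the choroid plexus, CLCN5 with 6.22 TPM and CLCN2 with 5.03 TPM were listed at 0, and no fold is given for them.

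On the log2 scale both CLC genes with counts in the proximal tubule, CLCN4 at -1.65 and CLCN6 at -2.46, were lower by 2-fold or more, against 71% of the 14227 gene IDs tested and 58 of the 94 other channels (61.7%), where genes listed at 0 are included. The other 3 CLC genes pass the same line only with their 0 taken as a level. Of the CLC genes 0 were higher by 2-fold or more, against 12.1% of all gene IDs and 11.7% of the other channels. The median of the 2 with counts was -2.05 and that of all gene IDs -2.27. Relative to the median of all gene IDs, CLCN4 was at 0.62 and CLCN6 at -0.19. Against genes of similar length CLCN4 was at 0.99 and CLCN6 at 0.069. Only 6274 gene IDs were above 0 in this library, so most of the 14227 tested were at 0 there. The ratios of such genes follow the male level and the added 1. These medians therefore give no measure of the relative level of CLCN4 or CLCN6. Markers of later kidney segments had counts in the same library. Of the thick ascending limb markers 2 of 3 had an ID, KCNJ1 with 89.3 TPM and SLC12A1 with 17.2 TPM, and they summed to at most 0.05 TPM in each choroid plexus library. Markers of the distal convoluted tubule, 2 of 3 with an ID, summed to 3.55 TPM, and those of the collecting duct, 3 of 7 with an ID, to 10.3 TPM, with SCNN1A and SLC4A1 at 0. The part of these segments in the CLC values was not tested.

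The effective length of a gene in RSEM is a mean over its transcripts weighted by their estimated levels. It cannot shift in a gene with 1 annotated transcript, and how many the CLC genes have was not read here. After the offset common to a library was taken off, the effective lengths of CLCN4 and CLCN6 were those of the male library in every library. That of CLCN3 differed from the male library by 68.4 bases in the FACS library and by -40.4 bases in the female. That of CLCN5 differed by -64.2 bases in the FACS library and by 54.0 bases in the female. That of CLCN2 differed by -23.5 bases in the female and by -23.9 bases in the FACS library. A shift of over 1 base was common, at 24.5%, 25.6% and 28.5% of gene IDs with at least 30 counts in the female, FACS and proximal tubule library. Only CLCN2 had expected counts that were not whole (327.14, 313.4 and 351.69 in the male, female and FACS library), which RSEM gives where reads are shared between genes, whereas the other CLC genes had whole counts, within 0.005.

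Other genes that move Cl- were read from a list of 14, taken from the study's gene descriptions with BEST1 and CLIC6 added. Of these 12 reached 0.5 TPM in the male, 11 in the female, 11 in the FACS and 6 in the proximal tubule library. Of all gene IDs 41.4%, 40.8%, 39.9% and 18.5% reached it in the same order. In the male choroid plexus the 14 list genes summed to 2572 TPM, led by CLIC6, a Cl- channel protein that is found within the cell as well, with 1302 TPM. The anion exchanger SLC4A2 had 638 TPM, the cotransporter NKCC1, encoded by SLC12A2, 268 TPM and the K+, Cl- cotransporter SLC12A4 192 TPM. CLCN3 thus read below each of these, and below the bestrophin channel BEST1 with 58.6 TPM.

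Between FACS and male, 1 of the 12 list genes past the cut-off was lower by 2-fold or more, SLC4A8 with 3.27 TPM in the whole tissue against 0.51 TPM after sorting, and 0 were higher. Of all gene IDs 25.5% were lower and 4.61% higher by 2-fold or more. The median log2 ratio of the 12 was -0.33, against -1.02 for the CLC genes and -0.58 for all gene IDs. SLC12A2, whose product the sort used, had 150.3 TPM in the FACS library. Between female and male 0 of 12 moved by 2-fold in either direction, against 0.959% of all gene IDs lower and 0.44% higher. In the proximal tubule 10 of the 14 were lower by 2-fold or more and 3 higher (SLC12A1, SLC12A3 and SLC12A8), against 71% and 12.1% of all gene IDs. Of the 10 lower, 8 were listed at 0 and pass the line only with their 0 taken as a level. OSTM1, the subunit of the lysosomal exchanger ClC-7, had 76.9 TPM in the male, 63.9 TPM in the female and 41.9 TPM in the FACS library, and was listed at 0 in the proximal tubule. Its log2 ratio of FACS to male, -0.86, lay between those of CLCN6 and CLCN4.

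Of 30 listed channels with at least 5 TPM in the male choroid plexus, KCNQ1 and KCNA1 were among the 3 with ratios nearest to CLCN3, at distances of 1.01 and 1.296 over the 3 log2 ratios to the male library. Both are K+ channels listed at 0 in the proximal tubule, and KCNQ1 had 30.1, 28.8 and 23.2 TPM in the male, female and FACS library. For CLCN3, KCNQ1 and KCNA1 the proximal tubule ratio is a listed 0 with the added 1, so it follows the male level only. The log2 ratio of FACS to male was -0.36 for KCNQ1 and -2.20 for KCNA1, against -1.35 for CLCN3. The nearest to CLCN4 were the cation channel TRPM7, the gap junction protein GJA1 and the ATP receptor P2RX4, at 0.66, 0.69 and 1.02. TRPM7 had 30.5, 22.8, 8.99 and 9.15 TPM in the male, female, FACS and proximal tubule library. The 3 ratios share the male library, so these distances are a description only.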

How the data were processed

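Total RNA of 4 pooled rat samples was sequenced, and the processed values were analysed as deposited. The authors aligned reads with STAR 2.7.2a to Rnor_6.0 and quantified genes with RSEM 1.3.3. From this the authors deposited, per gene ID, an expected count, a TPM and an effective length, and an FPKM column that was not used here. Strandedness of the counting is not given in the sources used here, so antisense and near-identical genes are uncertain.

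Levels, sums, places, log2 ratios with a pseudocount of 1 TPM, exact intervals and figures were made in Python 3.11.15 (pandas 2.3.3, numpy 2.4.6, scipy 1.17.1 and matplotlib 3.10.9). Genes at or above 0.5 TPM in either library entered a ratio. Ratios without pseudocount were computed from expected counts and effective lengths. Comparisons with kidney used TPM rescaled after removal of the 13 mitochondrially encoded genes from both libraries. Intervals and the floor of 3 counts cover counting error only. Depth was 28324976, 25376480, 23873318 and 25130213 expected counts in the male, female, FACS and proximal tubule library, 7352952 of the last outside mitochondrially encoded genes. Expected counts were not tested, since each group had 1 library.

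Samples were grouped by their labels. Gene names came from the study's lists, where 2450 of the 32883 IDs carry one; the RefSeq table matched 0 IDs. Genes named are the CLC genes, related genes whose symbol could be paired with an ID, the Cl- list, the 3 channels nearest in Euclidean distance to CLCN3 and to CLCN4, and markers of cell types and kidney segments. Some listed channels are not reported here. The CLC genes and all lists were chosen with earlier results of these data known. Only the log2 ratio and its interval were tested on simulated counts, with changes set in genes above the male levels of CLCN2 and CLCN5. Alternatives changed the cut-off, pseudocount, scaling, length reference and reference library. Promoters came from RefSeq (GRCr8).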

Additional observations from a re-analysis of the deposited data

How the results depend on the processing

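Of 84 recomputed values (counts of CLC genes found, sums, medians and counts of genes lower by 2-fold), 51 kept their direction and stayed close to the value reported and 33 moved. Some of the 51 could not have moved. All 5 CLC genes passed the filter on low values, so removing it left their ratios as they were. A lower cut-off could not change a count where all 5 were found. The sums moved with scaling. Without mitochondrially encoded genes they were 76.4 TPM in the male, 62.6 TPM in the female and 33.2 TPM in the FACS library, and without the 10 highest genes 108.7, 97.7 and 64.3 TPM. The proximal tubule sum was 1.61 TPM with mitochondrially encoded genes and 7.52 TPM without the 10 highest. At a cut-off of 5 TPM, 3 CLC genes were found in the female, 3 in the FACS and 0 in the proximal tubule library. At the cut-off of 0.5 TPM with mitochondrially encoded genes kept, 1 CLC gene was found in the proximal tubule library.

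The female to male median was -0.11 relative to all genes and -0.025 against genes of similar length. The FACS to male median was -0.68 without the 10 highest genes, -0.44 relative to all genes, -0.33 against genes of similar length and -0.75 with the female in place of the male tissue. The number lower by 2-fold was 1 without the 10 highest genes, 1 relative to all genes, 1 against genes of similar length and 2 with the female tissue. For the proximal tubule the median of all 5, with the genes listed at 0 taken at 0, was -2.59, the value of CLCN2, which is one of these, and so followed the added pseudocount. It was -5.68 and -3.47 with pseudocounts of 0.1 and 0.5 TPM, -2.80 with mitochondrially encoded genes, -3.13 without the 10 highest genes, -0.32 relative to all genes, -1.69 against the FACS library and -0.037 against genes of similar length. The number lower by 2-fold, 5 with these genes at 0, was 1 relative to all genes, 1 against genes of similar length and 3 against the FACS library. Leaving out the genes listed at 0, an alternative chosen after seeing the data, gave a median of -2.05 and 2 lower genes. The cause of these moves was not tested beyond what each construction fixes. Over the same alternatives the log2 ratio of FACS to male stayed below 0 for CLCN3 (-1.41 to -0.69), CLCN4 (-1.12 to -0.33) and CLCN5 (-3.03 to -1.48), above 0 for CLCN2 (0.0023 to 0.66), and changed sign in 1 of 9 for CLCN6 (-0.80 to 0.0062). For the proximal tubule it changed sign in 2 of 11 for CLCN4 (-2.80 to 0.99) and in 1 of 11 for CLCN6 (-3.15 to 0.069). These changes of sign arose against medians that include genes listed at 0.

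No paired analysis was possible because each group had 1 library. With 1 library per condition, differences between preparations or pools cannot be told apart from those between conditions. Depth limits CLCN5 in the FACS library, with 36 counts.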
